A study of Psammomys obesus with 8 samples.

Results

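The contigs described here are stretches of assembled sequence with almost no CpG, the dinucleotide that carries DNA methylation in mammals. A contig belonged to the set when it had fewer than 0.5 CG per 100 bases, when it was not a tandem repeat, and when its mouse match, if it had one, was not on the mitochondrial genome. This rule kept 431 of 548060 contigs, of which 321 held no CG at all and 110 held 1 to 3. Another 370 contigs fell under the same CG cut but were tandem repeats and were left out, and 0 lay on the mitochondrial genome.

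The contigs were counted in captured DNA from male hypothalamus of the fat sand rat (*Psammomys obesus*), a gerbil of dry regions in which diet can bring on obesity and diabetes. There were 4 standard-low and 4 low-low libraries, all from animals 16 weeks old. The labels give standard lipid as the diet of the standard-low animals and low lipid as that of the low-low animals, and the series describes the contrast as one of paternal diet. The labels name no strain or genotype, and they do not say whether each library came from a separate animal, litter or father, so the p-values reflect nothing beyond the spread among these libraries, part of which may be technical. Captured DNA offers no expression markers by which to check the labelled tissue.

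Methyl-CpG capture with MethylMiner uses the methyl-binding domain of MBD2, which holds double-stranded DNA through methylated CpG sites. A fragment without methylated CpG is in principle washed away, so reads over CpG-poor sequence come either from DNA that was carried through or from fragments whose CpG lies outside the sequence read. Mammalian genomes lost most of their CpG through deamination of methylated cytosine, which turns CG into TG or CA, and old interspersed repeats are a common place to find CpG-free stretches. CpG-poor contigs are for this reason a possible choice to gauge background capture.

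Contigs of this kind without CG that held the most reads, and those with the best match to mouse, show what such sequence looks like, with any CG in capitals and all other bases in lower case. The first 2 had the highest CPM (the read count scaled to library size) of the members without CG and had no mouse match. The other 4 had the highest-scoring mouse matches among members of at most 300 bases, on mouse chromosome 10 at chr10:33866640-33866835 for contig 4518416 and chr10:118336442-118336595 for contig 4401980, on chromosome 17 at chr17:66135759-66135977 for contig 3497511, and on chromosome 7 at chr7:78674834-78675001 for contig 1989288. These positions are those of the authors' contig names, with a mouse build and strand not given in the sources used here, and the letters are those of the sand rat contig.
contig 186816: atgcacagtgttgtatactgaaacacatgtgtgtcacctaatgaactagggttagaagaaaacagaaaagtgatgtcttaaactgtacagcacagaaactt
contig 503736: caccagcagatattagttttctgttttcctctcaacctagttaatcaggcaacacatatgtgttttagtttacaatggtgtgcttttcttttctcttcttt
contig 4518416: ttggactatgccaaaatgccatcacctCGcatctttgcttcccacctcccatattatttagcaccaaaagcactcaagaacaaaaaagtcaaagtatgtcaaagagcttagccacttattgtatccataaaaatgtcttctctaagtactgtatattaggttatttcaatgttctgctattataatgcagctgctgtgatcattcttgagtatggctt
contig 4401980: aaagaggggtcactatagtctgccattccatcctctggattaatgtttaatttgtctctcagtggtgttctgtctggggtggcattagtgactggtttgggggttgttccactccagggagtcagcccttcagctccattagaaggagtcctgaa
contig 3497511: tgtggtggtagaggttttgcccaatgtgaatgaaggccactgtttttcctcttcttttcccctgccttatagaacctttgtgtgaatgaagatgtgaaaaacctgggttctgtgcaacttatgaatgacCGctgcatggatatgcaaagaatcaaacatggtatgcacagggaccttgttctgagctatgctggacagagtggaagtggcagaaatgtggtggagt
contig 1989288: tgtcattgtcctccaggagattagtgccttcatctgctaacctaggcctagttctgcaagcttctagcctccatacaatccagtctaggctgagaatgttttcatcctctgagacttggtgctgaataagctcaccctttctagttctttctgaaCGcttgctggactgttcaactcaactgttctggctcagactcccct

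Few-CpG contigs were short. Their median length was 122 bases, against 442 for all contigs of the table, and 147 of them (34.1%) were at most 101 bases long, the most frequent length in the table, against 1.23% of all contigs. Those without CG had a median of 103 bases and those with 1 to 3 CG a median of 272.5. Only 59 members reached 300 bases. A short contig has fewer places at which a CG can stand, so the CG cut and the length are tied by the rule itself.

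Their composition followed the low CG. The median GC content was 42.6% in the members and 48.4% in all contigs. TG and CA together, the dinucleotides that deamination of a methylated CG leaves, were at 17.5 per 100 bases in the members and 16.0 in all contigs. Among contigs up to 101 bases long, members had a GC content of 42.6% and 16.8 TG and CA per 100 bases, against 47.5% and 14.9 in other contigs that were neither tandem nor mitochondrial. Sequence shared with the rest of the table depended on the contigs they were set against. In 82.1% of the members at least 1 stretch of 21 bases occurred in another contig, against 60.7% of all contigs, and the median share of such stretches was 11.1% against 0.455%. At up to 101 bases the order was the reverse, with at least 1 such stretch in 78.9% of the members and 87.6% of the other contigs, and median shares of 18.5% and 37.0%.

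Each member was also aligned to the whole table. A relative was counted when it matched at 80% identity or more over at least 50% of the member. Of the 431 members, 207 (48.0%) had at least 1 relative, 73 had 10 or more, and 22 had 100 or more, up to 2662. Contigs 186816 and 503736, printed above, had 721 and 1226 relatives, and they matched each other on opposite strands at 78.9% identity over 76 bases. Among themselves, 46 members fell into 20 families, the largest of 13 contigs and the next of 8. Reads from such copies can be placed on any of them, so counts of related contigs are not independent.

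Mouse matches were present for 72 members (16.7%), against 38.0% of all contigs, and 31 of these 72 (43.1%) lay inside a mouse gene, against 60.1% of all matched contigs. At up to 101 bases the order of the matches was reversed, with a match in 15.0% of the members and 7.14% of the other contigs. Of those matched, 12 of 22 members (54.5%) and 130 of 248 other contigs (52.4%) lay inside a gene, which is nearly level. On the X chromosome lay 10 of the 72 (13.9%), against 2.59% of all matched contigs. Up to 101 bases, 3 of 22 matched members (13.6%) were on X, against 12.1% of the matched other contigs that were neither tandem nor mitochondrial. At that length the share on X was thus not particular to few CpG. Over 101 bases it was 7 of 50 matched members (14%). Contigs of any length with 0.5 to under 1 CG per 100 bases, neither tandem nor mitochondrial, had 5.49% of their matches on X. Contigs of the table lay within 1 kb of 26 of the 72 matched members (36.1%), against 32.1% for all matched contigs. Within 10 kb the order was the reverse, at 77.8% against 86.8%.

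By the median, the members carried nearly as many reads as other short contigs, at 14.5 against 15.3 per library up to 101 bases. The median member had 13.1 reads per library, against 17.4 over all contigs, and the deposited table holds no contig with fewer than 81 reads over the 8 libraries. Per length the members were above the table, with a median of 103 reads per kb and library against 43.2, but this is set by their shortness and by the minimum of 81 reads. Among contigs up to 101 bases long, the median was 14.5 reads per library without CG, 15.0 with 0.5 to under 1 CG per 100 bases, 14.8 with 2 to under 3, and 17.1 with 5 or more. At this length, median reads per contig thus differed little over the range of CG density, and they lay close to the minimum set by the table. The quartiles were 11.8 and 21.1 without CG and 12.9 and 29.5 at 5 or more CG. Reads pooled over these contigs did rise with CG density, from 191 per kb and library without CG to 216 at 2 to under 3 and 267 at 5 or more. In members of at least 300 bases the median was 32.3 reads per kb. Since contigs under the minimum are not in the table, the level of reads over CpG-free sequence in general was not measured, and the members give no absolute level of background.

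**Figure D1:**
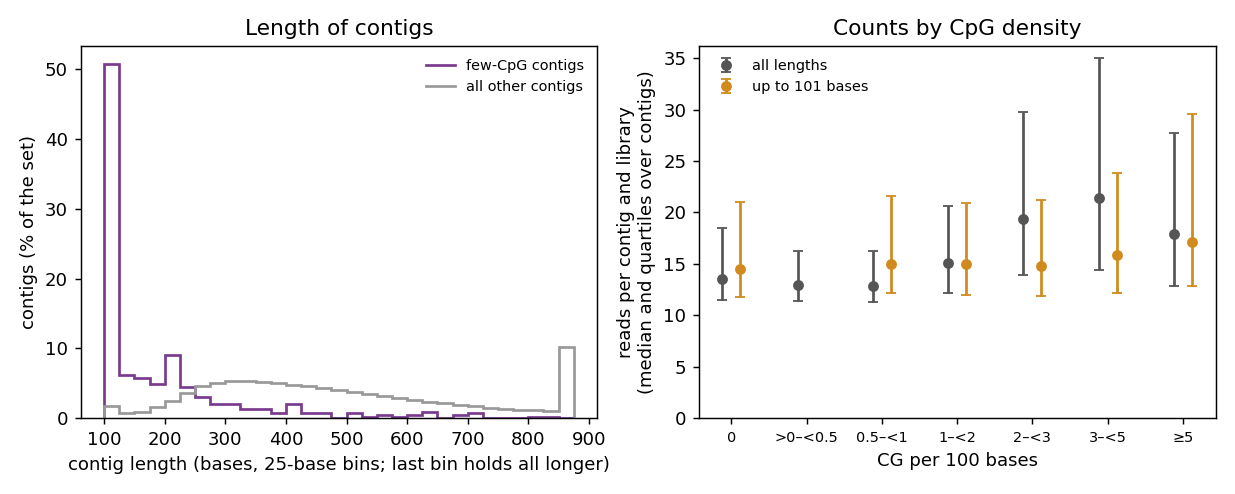
Left, the length of few-CpG contigs and of all other contigs, as a percentage of each set in 25-base bins. Right, reads per contig and library by CG per 100 bases, as median and quartiles over contigs that are neither tandem nor mitochondrial, for all lengths and for contigs up to 101 bases; the short contigs had a median of 14.5 reads without CG and 17.1 at 5 or more CG.

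The spread between replicates was slightly wider than in the whole table, with a median biological coefficient of variation (edgeR) of 0.160 against 0.144. It was 0.161 in contigs with 0.5 to under 1 CG per 100 bases, which had a similar median of 12.9 reads. Up to 101 bases it was 0.158 in the members and 0.154 in the other contigs, so the width was not particular to few CpG. Every member had reads in every library, and no member was removed by the filter at a mean of 10 reads per library.

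As a whole, few-CpG contigs took a larger share of the reads in standard-low than in low-low libraries, and the groups overlapped. Library totals over all contigs ran from 11646180 to 12156525 reads in standard-low and from 12528388 to 13533441 in low-low. The members held 0.0673%, 0.0631%, 0.0595% and 0.0692% of the reads of standard-low libraries 1 to 4, against 0.0616%, 0.0478%, 0.0468% and 0.0540% in low-low libraries 1 to 4. Low-low 1 lay above standard-low 3, and the other 3 low-low libraries lay below all standard-low libraries. The means were 0.0648% ± 0.00435 in standard-low and 0.0526% ± 0.00682 in low-low (SD, n = 4 each), a ratio of 1.23. For the contigs without CG the ratio was 1.24, and for those with 1 to 3 CG it was 1.20.

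The difference followed CG density over the whole table, and the few-CpG contigs stood at its upper end. The median log2 fold change of standard-low over low-low was 0.21 in contigs without CG and 0.25 in those above 0 and under 0.5 CG per 100 bases. It was 0.13 at 0.5 to under 1, 0.07 at 1 to under 2, -0.01 at 2 to under 3, -0.11 at 3 to under 5, and -0.22 at 5 and over. Among contigs up to 101 bases long, the same order ran 0.21 without CG, then 0.13, 0.07, 0.03, -0.08 and -0.09 at the highest density, so the order held at a fixed length. Median GC content rose along the same classes, from 42.6% without CG to 60.8% at 5 and over. Up to 101 bases it rose from 42.6% to 57.4%. Whether the order followed GC content rather than CG density was not tested. Scaling by library totals or by DESeq2 size factors left the median of the members at 0.23 and 0.22.

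At the CpG-rich end most standard-low libraries were the lower ones. Contigs with 5 or more CG per 100 bases held 1.09%, 0.889%, 1.27% and 0.937% of the reads of standard-low libraries 1 to 4, against 1.09%, 1.24%, 1.25% and 1.18% in low-low libraries 1 to 4. Standard-low 2 and 4 were the lowest there, and standard-low 3 was the highest of all 8. Reads per kb over the members, divided by reads per kb over contigs with at least 3 CG per 100 bases, were 1.85, 1.88, 1.51 and 2.02 in standard-low and 1.66, 1.21, 1.19 and 1.38 in low-low. The means were 1.81 ± 0.216 in standard-low and 1.36 ± 0.217 in low-low (SD, n = 4 each), a ratio of 1.33, with low-low 1 above standard-low 3. The slope of log2 CPM on CG density differed between libraries in the same way. It was -0.0231, -0.0770, 0.0434 and -0.0789 per CG in standard-low, against -0.0103, 0.0542, 0.0435 and 0.0483 in low-low, relative to the mean of the 8 libraries.

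**Figure D2:**
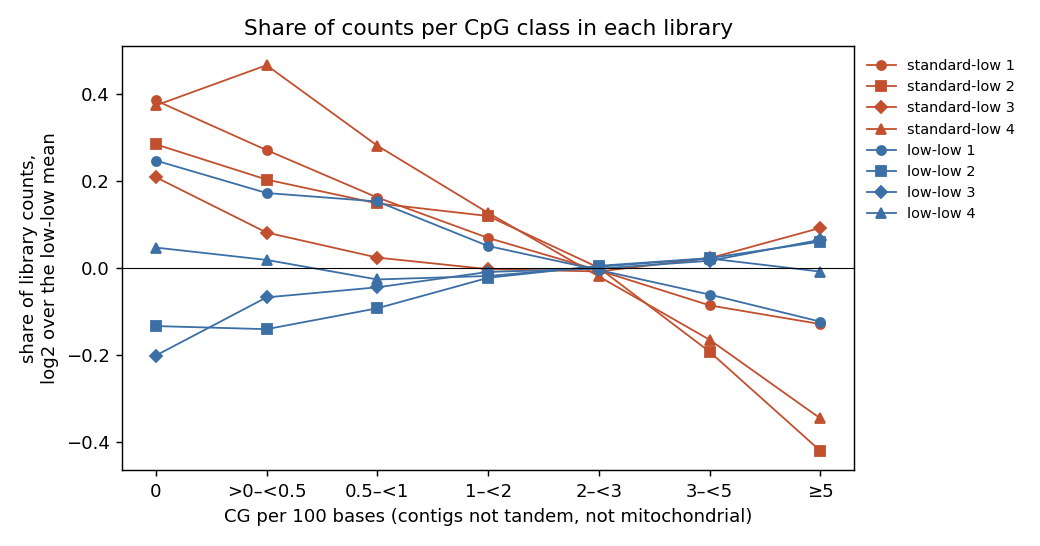
Share of each library's reads in classes of CG per 100 bases, as log2 over the mean of the low-low libraries. Standard-low libraries (red) lie at 0.21 to 0.38 for contigs without CG; low-low 1 lies at 0.25, among them, and the other low-low libraries lie at 0.05 or lower.

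In the single-contig test, 12 of the 431 members passed an adjusted p of 0.05 (edgeR quasi-likelihood test, Benjamini-Hochberg over all contigs). This is 2.78% of the members, against 0.0268% of all contigs, or 147 contigs. All 12 were higher in standard-low and all 12 were without CG, and 0 of the 110 members with 1 to 3 CG passed. Over all contigs, 0.0203% were called higher in standard-low and 0.00657% lower. Up to 101 bases, 5 of 147 members passed (3.40%), against 9 of 3472 other contigs that were neither tandem nor mitochondrial (0.259%). With 0.5 to under 1 CG per 100 bases, 8 of 2804 such contigs of any length passed (0.285%). All of these, too, were higher in standard-low. Taking unadjusted p under 0.05 instead, 89 members were higher and 2 lower, together 21.1%, against 5.68% of all contigs, with 2.93% higher and 2.76% lower. The 4 standard-low libraries all lay above the 4 low-low libraries in 33 members (7.66%) and below them in 3 (0.696%), against 1.63% and 1.61% of all contigs. The median log2 fold change of the members was 0.22, with quartiles of -0.07 and 0.52. Over all contigs it was 0.00, with quartiles of -0.18 and 0.20. Of the 431 members, 292 (67.7%) were above 0, against 50.3% of all contigs. With DESeq2 1 member passed, against 0.00584% of all contigs, and with limma voom 6, against 0.00912%. With edgeR the count was 4 without low-low 2, 4 without standard-low 1 and 6 without low-low 3, all higher in standard-low, against 0.0121%, 0.0225% and 0.0196% of all contigs in these fits. With a linear term for CG density in each library, added after the data were seen, 8 members passed, against 0.0277% of all contigs, and the median log2 fold change was 0.07.

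**Figure D3:**
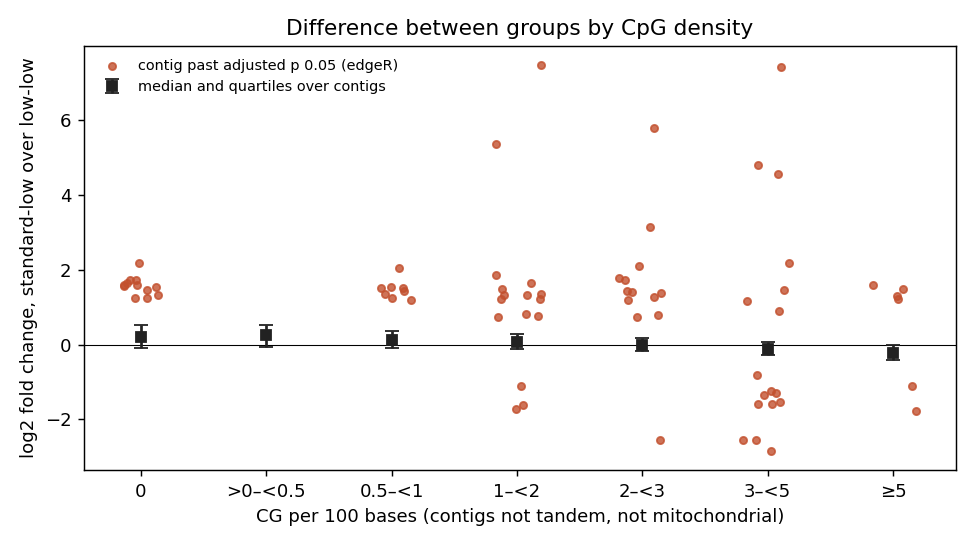
Log2 fold change of standard-low over low-low by CG per 100 bases, for contigs that are neither tandem nor mitochondrial. Black squares and bars are the median and quartiles over contigs, and red points are contigs past an adjusted p of 0.05 with edgeR; the median runs from 0.21 without CG to -0.22 at 5 or more, and all 12 called contigs without CG lie above 0.

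The 12 called contigs were between 101 and 384 bases long. Contig 2033342, of 111 bases, had 80, 33, 55 and 40 reads in standard-low libraries 1 to 4, against 25, 11, 16 and 17 in low-low libraries 1 to 4. The groups did not overlap, and the fitted difference was 3.29-fold (log2 fold change 1.72 ± 0.236 SE; edgeR adjusted p = 2.95e-06). It was the only member that also passed with DESeq2 (adjusted p = 0.00044) and the only one that passed in all 17 settings tried. It had 0 relatives in the table and no mouse match.

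Contig 3227669, of 101 bases, had 98, 36, 60 and 66 reads in standard-low, against 44, 12, 22 and 25 in low-low. Low-low 1 was above standard-low 2, and the fitted difference was 2.76-fold (edgeR adjusted p = 5.53e-05). Contig 1054267, of the same length, had 89, 26, 49 and 64 reads in standard-low, against 38, 13, 19 and 16 in low-low, with the same overlap and a fitted difference of 2.90-fold (edgeR adjusted p = 1.04e-04). Both passed in 16 of 17 settings, all but DESeq2.

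The next 3 held in fewer settings. Contig 3938550 had 62, 19, 31 and 38 reads in standard-low, against 22, 5, 12 and 10 in low-low, which is 3.33-fold by the fit (edgeR adjusted p = 3.02e-04), past in 15 of 17 settings and not without standard-low 1 (edgeR adjusted p = 0.094). This contig, too, had low-low 1 above standard-low 2. Contig 1603305, of 245 bases, had 72, 26, 24 and 45 reads in standard-low, against 27, 6, 13 and 14 in low-low, a 3.04-fold difference past in 13 of 17, with edgeR adjusted p of 0.0758 without low-low 2 and 0.239 without standard-low 1. Contig 851878 was the most abundant of the 12, with 112, 74, 69 and 70 reads in standard-low, against 82, 16, 26 and 27 in low-low. In the low-low group of this contig, library 1 alone overlapped standard-low, at 6.26 CPM. Standard-low libraries 2, 3 and 4 were below it, at 6.24, 5.72 and 5.92 CPM. The fitted difference of contig 851878 was 2.36-fold (edgeR adjusted p = 0.00106), and 3.85-fold without low-low 1. The edgeR adjusted p was 0.147, 0.0509 and 0.0962 without low-low 2, low-low 3 and standard-low 1.

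Contig 2656323, of 125 bases, had another pattern, with 4, 7, 32 and 45 reads in standard-low and 5, 4, 7 and 5 in low-low. Only standard-low 3 and 4 were high, and the other standard-low libraries were at the level of low-low. Its fitted difference was 4.50-fold (edgeR adjusted p = 0.00687), and limma voom gave an adjusted p of 0.891. The edgeR adjusted p was 0.127 without low-low 2 and 0.0579 without standard-low 3, and without standard-low 4 the contig fell under the filter.

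The remaining 5 called contigs passed in 6 to 11 of 16 or 17 settings. Contig 1528948 was the only called member with a mouse match, on chromosome 4, 1966 bases from Tyrp1, which encodes an enzyme of melanin synthesis. It had 68, 20, 53 and 42 reads in standard-low, against 31, 11, 17 and 25 in low-low. Contig 3916053, the longest of the 12 at 384 bases, had 29, 23, 17 and 34 reads in standard-low, against 13, 12, 7 and 13 in low-low, with no overlap between the groups. Contig 786669 also kept the groups apart in CPM, with 31, 15, 19 and 24 reads in standard-low and 15, 5, 2 and 10 in low-low. In contigs 1208349 and 3449791 the fitted differences were 2.98-fold and 3.10-fold, and the groups overlapped. Without low-low 1 these were 4.65-fold and 5.25-fold. With 1 library left out, edgeR adjusted p reached 0.433, 0.411 and 0.613 for contigs 1208349, 1528948 and 3449791, each without standard-low 1. Leaving out low-low 3 gave 0.489 for contig 786669, and leaving out standard-low 4 gave 0.517 for contig 3916053. Leaving out low-low 2 or low-low 3 also ended all 5 calls, and leaving out low-low 4 ended all but that of contig 1528948. Further calls ended without standard-low 1, for contigs 786669 and 3916053, without low-low 1 for contig 3916053, without standard-low 3 for contig 3449791 and without standard-low 4 for contig 786669. In all, 3 of the 12 called contigs separated the groups.

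**Figure D4:**
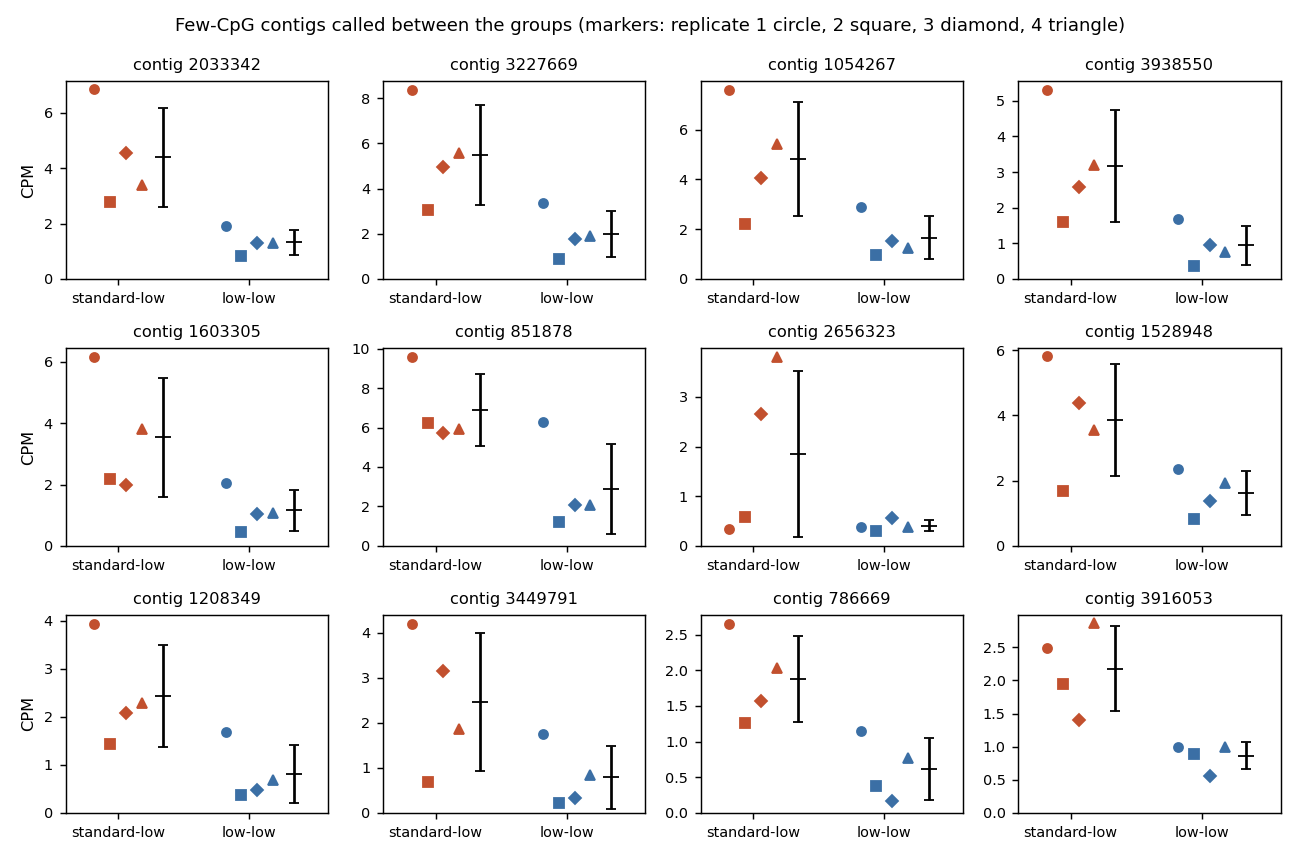
CPM of the 12 called few-CpG contigs in each library, standard-low left of low-low, with the mean and SD of 4 libraries beside the points. In 10 of the 12, standard-low 1 was the highest standard-low library and low-low 1 the highest low-low library; contig 2656323 was high in standard-low 3 and 4 only.

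The called contigs rose and fell together across the libraries within each group. Low-low 1 was the highest low-low library in 10 of the 12 and low-low 2 the lowest in 10. Standard-low 1 was the highest standard-low library in 10 and standard-low 2 the lowest in 8. Divided by the mean of the group, the median over the 12 was 1.77 in low-low 1 and 0.483 in low-low 2, and 1.54 in standard-low 1 and 0.571 in standard-low 2. Summed over the 12, CPM of the unscaled library total were 63.5, 26.1, 38.8 and 43.9 in standard-low libraries 1 to 4, against 26.5, 7.61, 12.1 and 13.9 in low-low libraries 1 to 4. For the sum, standard-low 2 and low-low 1 were level. In members that did not pass, low-low 1 was the highest low-low library in 46.3%, against 24.5% of all contigs.

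Some of the called contigs shared sequence. Contigs 1054267 and 851878 were identical over 50 bases, and contigs 1054267 and 1528948 over 30. Contigs 3938550 and 786669 were alike at 97.2% over 71 bases. Contig 580579, a member that did not pass, was alike to contig 1054267 at 93.5% over 93 bases and had a log2 fold change of 1.28 (edgeR adjusted p = 0.142). The 12 therefore stand for fewer than 12 independent sequences. Of the 12, 8 had no relative in the table and the most was 11, while 48.4% of the members that did not pass had at least 1. Relatives were sought in this table alone, which says nothing of repeat families outside it. No reference sequences of repeats were used here, such as those of LINE-1, a large family of mammalian retrotransposons. Whether the 12 belong to a repeat family was therefore not tested. Whether DNA of another species contributed to these reads was not tested.

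Without the 12 called contigs, which were chosen by this same difference, the members held 0.0610%, 0.0605%, 0.0556% and 0.0648% of the reads of standard-low libraries 1 to 4, against 0.0589%, 0.0471%, 0.0456% and 0.0526% in low-low libraries 1 to 4. The ratio of the means was 1.18, against 1.23 with them, and low-low 1 again lay above standard-low 3.

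Of the 5 members with the highest CPM and the 5 with the highest CPM per kb, 0 passed. Contig 186816 averaged 5.84 ± 0.831 CPM in standard-low and 6.24 ± 1.89 CPM in low-low (SD, n = 4 each). Contig 503736, alike to it but under the identity set for a relative, averaged 5.80 ± 0.596 and 5.86 ± 0.824 CPM in standard-low and low-low (SD, n = 4 each). Contig 3346419 averaged 5.51 ± 1.82 CPM in standard-low and 5.08 ± 0.653 CPM in low-low, and contig 2917576 averaged 5.71 ± 1.64 and 4.06 ± 0.946 CPM in standard-low and low-low (SD, n = 4 each). Contig 2742588, among the 5 with the highest CPM per kb, averaged 4.69 ± 1.20 CPM in standard-low and 4.31 ± 0.824 CPM in low-low (SD, n = 4 each).

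Of members lower in standard-low, 0 passed. The lowest unadjusted p among them belonged to contig 2283473, with 4, 9, 7 and 8 reads in standard-low, against 14, 8, 15 and 16 in low-low (log2 fold change -0.78; edgeR adjusted p = 0.867). Contigs 3388420 and 896982 had log2 fold changes of -0.70 and -0.55 (edgeR adjusted p = 0.877 and 0.880).

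The largest family, of 13 members, had a median log2 fold change of 0.64, from -0.02 to 1.08, and 0 of its contigs passed. In the family of 8 the median was 0.16, from -0.39 to 1.04, and again 0 passed. Contigs 186816, 3672808 and 680854 formed a family of 3 with values from -0.11 to 1.07, and 0 of them passed.

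The longest members spread a few CG over many bases. Contig 1345083, of 834 bases with 3 CG, matched mouse chromosome X at 2341 bases from the predicted gene Gm9003 and had 20, 22, 15 and 21 reads in standard-low, against 12, 5, 10 and 27 in low-low. Contig 1613934, of 805 bases, averaged 2.11 ± 0.493 CPM in standard-low and 1.23 ± 0.281 CPM in low-low, and contig 1131553, of 708 bases, averaged 0.972 ± 0.296 and 0.773 ± 0.251 CPM in standard-low and low-low (SD, n = 4 each). The longest without any CG was contig 3659688, of 598 bases on mouse chromosome 4, with 25, 15, 28 and 28 reads in standard-low and 17, 18, 6 and 15 in low-low (log2 fold change 0.91; edgeR adjusted p = 0.658). The next was contig 2235508, of 389 bases, at 0.970 ± 0.329 CPM in standard-low and 0.805 ± 0.360 CPM in low-low (SD, n = 4 each).

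The 31 members inside mouse genes lay in 29 genes, and 0 of them passed. In log2 fold change 21 of the 31 were above 0, against 292 of the 431 members and 50.3% of all contigs. Gene names rest on similarity to mouse, and whether a match lay in an exon or an intron was not analysed here. Serpina7, which encodes thyroxine-binding globulin, and Taf1, which encodes the largest subunit of the transcription factor TFIID, each held 2 members, all on the X chromosome. In Serpina7, contig 3072120 averaged 1.05 CPM in standard-low and 1.06 CPM in low-low, and contig 2141494 averaged 1.07 and 1.12 CPM in standard-low and low-low. In Taf1, contig 2641664 averaged 1.41 CPM in standard-low and 0.920 CPM in low-low, and contig 538786 averaged 1.20 and 1.31 CPM in standard-low and low-low. Their log2 fold changes were between -0.12 and 0.61.

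The lowest p among members in the 10 genes named by rule was at contig 1680838 in 0610009B14Rik, a gene known by its clone name. It had 29, 12, 16 and 18 reads in standard-low, against 11, 2, 6 and 7 in low-low (log2 fold change 1.64; edgeR adjusted p = 0.0589), and only 38 of its 120 bases matched mouse. Contig 3234451 in Adam5, a member of the ADAM family expressed in testis, had a log2 fold change of 0.59 (edgeR adjusted p = 0.867). In Bach2, a transcriptional repressor of lymphocytes, contig 2370085 had 0.22, and in Bmpr1b, a receptor for bone morphogenetic proteins, contig 1841006 had -0.52. Contigs in Antxr1, an anthrax toxin receptor, in Baat1 and in Cyp2d22, a cytochrome P450, had log2 fold changes of -0.06, 0.33 and 0.25. Contig 4401980 in AC158600.5, printed above, had 5, 12, 17 and 9 reads in standard-low and 15, 8, 12 and 17 in low-low, with the groups overlapping. The other printed contigs in genes, 4518416 in Sult3a1, a sulfotransferase, and 3497511 in Ddx11, a DNA helicase, had log2 fold changes of 0.13 and 0.36, and contig 1989288, outside any gene, had 0.16.

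Just under the cut of 0.5 CG per 100 bases, contigs 1989288 and 69376, each of 201 bases with 1 CG, and contig 1989867, of 606 bases with 3, averaged 1.16, 0.866 and 3.24 CPM in standard-low and 1.03, 0.954 and 3.60 CPM in low-low. Just at it, contigs 3920989, 2542714 and 799912 averaged 1.12, 1.03 and 1.29 CPM in standard-low and 0.842, 1.76 and 1.18 CPM in low-low.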

How the data were processed

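Captured DNA of 8 hypothalamus libraries was analysed from the counts of reads on each contig in the authors' deposited table, which also gives its sequence and, for some, a mouse match in its name. Per the submitters' processing notes, FastQC and BWA were used. Their versions, the assembler and the handling of reads with several placements were not given in the sources used here. Library names in the header are separated otherwise than the values, and columns were assigned in header order.

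CG was counted in each contig. A contig was tandem if, at any shift from 1 to 60, at least 50% of its bases equalled the base that far away. Counts of all 548060 contigs were tested with edgeR 4.0.16 (TMM, glmQLFit, two-sided glmQLFTest; R 4.3.3) and adjusted by Benjamini-Hochberg over all of them, threshold 0.05. Requiring a mean of 10 counts removed 0 contigs. CPM used the library total times the TMM factor. Relatives were found with BLAST 2.17.0 (e-value 1e-05). DESeq2 1.42.0, limma 3.58.1 voom, other scalings and filters, a replicate block, each library left out, other CG cuts and a length limit were alternatives. The test was checked on simulated counts. There it called 0 of 50 contigs changed 1.5-fold, 17 of 50 changed 2-fold and 50 of 50 changed 4-fold. It also called 11 of 547860 unchanged contigs.

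The members and lists were chosen with earlier results of these data known. Contigs named are the 5 members with the highest CPM and CPM per kb, every member called, the 3 with the lowest p in each direction, the 3 longest with and without CG, 3 on each side of the cut, and the 10 genes holding most members, ties by name. A contig among them is not reported here. Printed sequences, the singled-out contig 580579 and the families were chosen after their values were seen. The library totals limit the precision of each value, and a median of 13.1 reads per contig and library leaves wide counting error.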

Additional observations from a re-analysis of the deposited data

Results flagged for a closer look

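In a test of each named contig for a library far from the other 3 of its group, 66 groups were examined, of which chance alone flags about 5%. The gap to the nearest library was large against the range of the group in 2 of them, both in standard-low 1. Contig 851878, without CG and called, had 9.58 CPM in standard-low 1, with the other 3 standard-low libraries close together below it. Contig 69376, with 1 CG and just under the cut, had 1.20 CPM in standard-low 1, and it did not pass the test between the groups (edgeR adjusted p = 0.985).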

How the results depend on the processing

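The number of members called depended on the tool and on single libraries, while every member called was higher in standard-low in all settings tried. Against 12 members with edgeR, DESeq2 called 1, limma voom 6 and a filter at a mean of 20 counts 7 of the 85 members it kept. Over all contigs these settings called 147, 32, 50 and 82. Library totals, DESeq2 size factors and no filter gave 12 members each, with 155, 148 and 147 over all contigs. With 1 library left out, calls ran from 4 to 16 among the members and from 65 to 201 over all contigs. Among the members there were 4 without low-low 2, 4 without standard-low 1 and 6 without low-low 3. Calls ended there in contigs that passed otherwise, and the cause was not tested. Other rules of membership gave 20 of 3235 contigs under 1 CG per 100 bases and 1 of 59 members of at least 300 bases. The share over all contigs was 0.0268%. Of the alternatives chosen after seeing the data, a linear CG term per library gave 8 calls and a median log2 fold change of 0.069. The CG slope of the library as a covariate gave 6 calls and 0.10. Over all contigs these 2 fits called 152 and 74. The median of the members otherwise ran from 0.16 to 0.29 with 1 library left out. With 1 library left out, the ratio of the share of reads ran from 1.19 to 1.31 and that of reads per kb against CpG-rich contigs from 1.28 to 1.44. The share ratio was 1.13 for contigs under 1 CG per 100 bases, and the ratio per kb 1.26 and 1.42 with CpG-rich taken from 2 and from 5 CG per 100 bases.

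A fit with the replicate number as a block called 15 members and 206 contigs in all, against 12 and 147 without it. Same-numbered libraries deviated together with correlations of 0.013, 0.0313, 0.0273 and -0.0095. Standard-low 1, 2 and 3 each correlated best with the low-low library of their own number, and standard-low 4 with low-low 1 (0.0326). In 10 of the 12 called contigs, library 1 was the highest in both groups. The correlations were small and the labels name no pairing, so the main fit had no block. Whether same-numbered libraries shared a batch was not tested. At a median of 13.1 reads per contig and library, small differences were not detectable for single members, and the table's minimum of 81 reads hides contigs with fewer.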
